A study of Mus musculus with 2 samples.

Results

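The 9 genes described here are regulators and early transcripts of the 2-cell stage and of embryonic genome activation in the mouse: Tcstv1, Tcstv3, AF067061, Dppa2, Dppa4, Klf17, Nfya, Zfp365 and Arg2. They were taken by gene name from the non-control probes of the arrays, where they had 14 probes among 56600, and they are 9 of 37006 gene names. In unfertilised oocytes 8 of the 9 genes had signal well above background with and without Mul1, beside 22893 of all 37006 gene names. Dppa4 was not well above background on either array. None of the 8 was 2-fold apart between the genotypes, beside 4.29% of the 22893. The largest difference was that of Zfp365, 1.55-fold higher in the knockout.

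The arrays compared unfertilised oocytes of wild-type (Mul1 +/+) C57BL/6 mice with those of Mul1 -/- C57BL/6 mice, from pools of 213 and 123 oocytes. Mul1 encodes a ubiquitin ligase of the mitochondrial outer membrane, and the title of the study concerns reactive oxygen species and preimplantation development. The labels give neither the design of the Mul1 allele, nor the age of the mice or the number that gave oocytes, nor any treatment. Each genotype has 1 pool and 1 single-colour array on the same slide, so no difference has a replicate check and no test across genes was made. Where an error is given it is the scanner software's own error of a spot, which leaves out all variation between animals and between amplifications.

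In the mouse, transcription is largely silent in the fully grown oocyte and the embryo's genome is switched on in earnest at the 2-cell stage. The oocyte stores mRNA and protein of factors that start this process, while a separate set of genes is transcribed briefly once it has begun. Nfya encodes the sequence-reading subunit of NF-Y, which binds the CCAAT box. Klf17 encodes a Krüppel-like zinc finger factor of oocytes and early embryos, and Dppa2 and Dppa4 encode a pair of SAP-domain proteins that act upstream of Dux and the 2-cell transcripts in embryonic stem cells. Tcstv1, Tcstv3 and AF067061 belong to a family named for its variable expression at the 2-cell stage. Zfp365 encodes a zinc finger protein also known as DBZ, and Arg2 encodes the mitochondrial arginase, which turns arginine into ornithine and urea.

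The Tcstv family probes are shown first, because their letters bear on which transcript each value belongs to. The probe named AF067061 (A_55_P2182902) is listed in the array annotation with 3 RefSeq transcripts, those of AF067061, Tcstv3 and the related gene Gm20767. It lies at chrUn_random:3551-3610 of mouse build mm9 on the minus strand, and the Tcstv1 probe has no position in that build. In a stretch of 33 bases, in capitals below, 29 bases of both probes were identical, and the others were C4A, A5G, G13T and T22C, with the AF067061 base first and positions counted from 1 at its 5′ end.
AF067061: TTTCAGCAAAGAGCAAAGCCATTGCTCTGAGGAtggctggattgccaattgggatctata
Tcstv1: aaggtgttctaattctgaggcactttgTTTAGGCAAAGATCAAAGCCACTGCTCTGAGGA

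The Tcstv3 probe, at chrUn_random:3141-3200 on the minus strand, is listed with the transcripts of Tcstv3 and AF067061, and shared no stretch of more than 9 bases with either of the above.
Tcstv3: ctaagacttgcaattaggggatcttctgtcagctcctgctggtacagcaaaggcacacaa

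The second AF067061 probe (A_55_P2056719) had 36 identical bases in a stretch of 38 with the probe of Gm20767. In RefSeq's gene order (assembly GRCm38.p6), Gm20767 and AF067061 lie between Tcstv1 and Tcstv3 in a cluster with 26 gene entries between those 2. Values of the family members are therefore uncertain as to the gene, since near-identical copies can bind the same probe.

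Probes of Dppa2, Dppa4 and Arg2 are shown because they show where in the gene a dim reading, an undetected gene and a difference close to 0 were read. The Dppa2 probe (A_55_P2059730) covers chr16:48317579-48318787 on the plus strand of mm9. Its 60 bases are spread over a span of 1209, so it is split across a gap in the genome, as a probe over a splice junction of its transcript NM_028615 would be. The Dppa4 probe (A_55_P2065549) lies at chr16:48291368-48291427 on the plus strand and the Arg2 probe at chr12:80252972-80253031 on the plus strand. Exon annotation of mm9 was not used here.
Dppa2: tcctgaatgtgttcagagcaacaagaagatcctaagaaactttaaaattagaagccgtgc
Dppa4: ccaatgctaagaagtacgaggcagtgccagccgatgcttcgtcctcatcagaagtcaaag
Arg2: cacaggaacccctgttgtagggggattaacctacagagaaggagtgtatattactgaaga

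The scanner software marks each spot that stands well above background, and 66.0% of the gene probes had this mark in the wild type and 64.5% in the knockout. The lowest marked signal was 12.9 and 15.8. The probe for the Mul1 transcript NM_026689 read 3353 in the wild type and 1074 in the knockout, a log2 difference of -1.61, while the probe for ENSMUST00000105815 read 19.3 and 23.1, a difference of 0.29. Whether either lies in the deleted part is not given in the labels. A difference below is the knockout's log2 signal minus the wild type's, each relative to the 75th percentile of its own array, which was a signal of 808 in the wild type and 789.6 in the knockout. Among all 22893 genes measured on both arrays the median difference was 0.03 and the quartiles were -0.16 and 0.22. Among probes printed many times on the arrays, the SD between spots of the difference had a median of 0.16 for the 4 probes with a signal under 100 and of 0.09 for the 10 probes between 100 and 1000. Those 2 ranges hold 9 of the 11 member probes that were measured.

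Of the 8 measured members, 7 lay above 0 and 1 below. Their median difference was 0.25, with a range from -0.11 to 0.64, whereas 54.8% of all measured genes lay above 0. None was at least 2-fold apart, where 4.29% of all measured genes were. The 1 member at least 1.5-fold apart, Zfp365, makes 12.5% of the 8, beside 13.0% of all measured genes. These shares are near those of all genes and say nothing particular about the members.

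**Figure D1:**
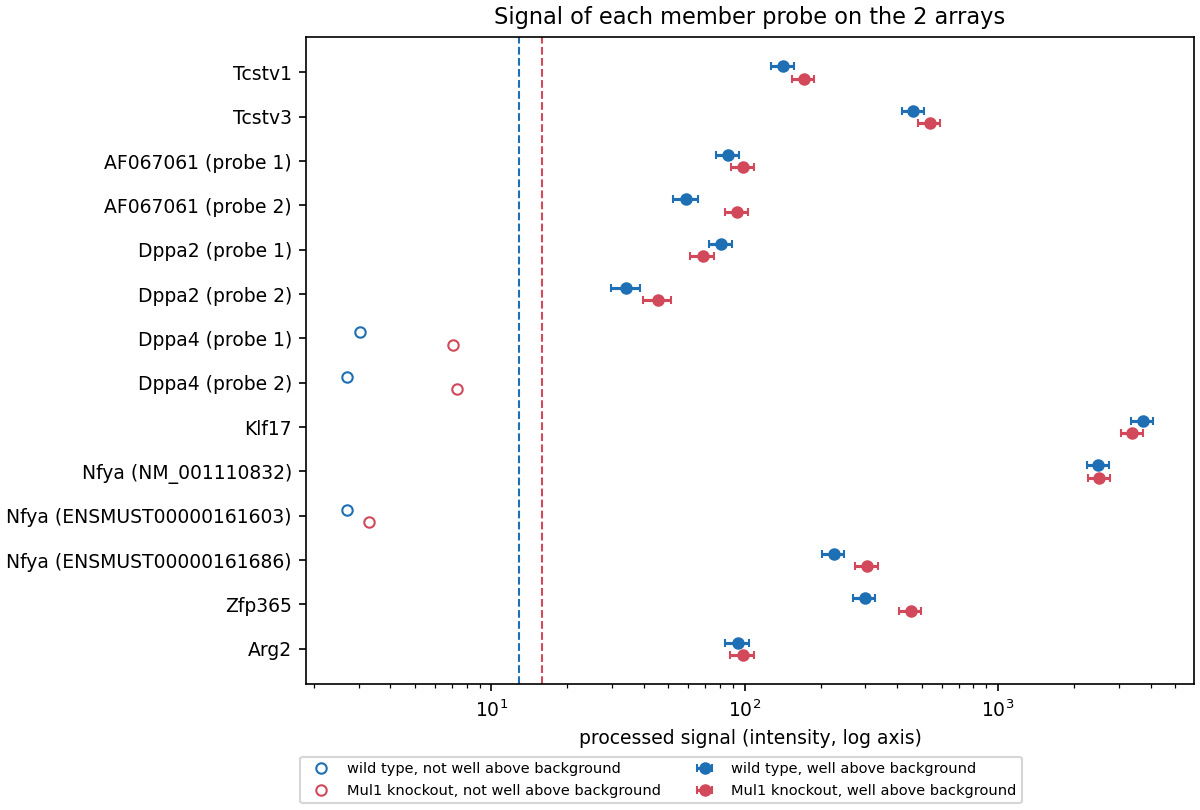
Processed signal of each of the 14 member probes on a log axis, wild type in blue and Mul1 knockout in red, with bars for the scanner error and dashed lines at the lowest signal well above background on each array (12.9 and 15.8). The Dppa4 probes and 1 Nfya probe, drawn open, lie left of the lines, and Klf17 and the NM_001110832 probe of Nfya lie far to the right on both arrays.

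Klf17 and the RefSeq transcript of Nfya were well detected in both genotypes and nearly equal between them. The Klf17 probe, for NM_029416 at chr4:117430863-117430922 on the minus strand of mm9, read 3732 in the wild type (scanner error 373) and 3390.2 in the knockout (339). These are 290.3 and 214 times the detection limit of each array, taken as its lowest marked signal. Its difference of -0.11 was smaller than its scanner error of 0.20. It was the 1 member below 0, and it read 0.03 with scaling on spike-in controls.

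Nfya was read by 3 probes. The probe for NM_001110832, at chr17:48526686-48526745 on the minus strand of mm9, gave 2487 in the wild type and 2510.4 in the knockout, a difference of 0.05 with a scanner error of 0.20. The probe for ENSMUST00000161686, at chr17:48537253-48537312, gave 224 and 304, a difference of 0.47 with an error of 0.21. The probe for ENSMUST00000161603, at chr17:48530265-48530324, was not well above background on either array. Its values of 2.69 and 3.29 are both substitutes that the scanner software sets for signals at noise level. The bright RefSeq probe was therefore nearly equal in the genotypes, and the mean of 0.26 for the gene came mostly from the dimmer probe of another transcript. With the brightest probe alone, Nfya was at 0.05.

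NF-Y also contains the subunits encoded by Nfyb and Nfyc, which pair with each other through histone-fold domains. Nfyb read -0.22 over 4 measured probes, from -0.31 to -0.13, and Nfyc read -0.04 over 3 probes. Promoter sequences of 4 members were found in RefSeq (assembly GRCm38.p6), covering 250 bases before to 50 after a gene start. The letters CCAAT, searched on both strands, were found in 37.4% of 32851 such windows of all genes. Among the members they occurred once in the Klf17 window, 151 bases before the start, and once in 1 of 3 Nfya windows, 137 bases before it. They were not in the windows of Zfp365 and AF067061, and a match in letters is no binding site.

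Dppa2 and Dppa4 are next to each other in the RefSeq gene order, with no gene between. Dppa2 was dim on both arrays. Its split probe, shown above, read 81.0 in the wild type (scanner error 8.50) and 68.4 in the knockout (7.55), a difference of -0.21. Its other probe, at chr16:48319381-48319440 on the plus strand, read 34.05 (4.47) and 45.6 (5.78), a difference of 0.45. The probes thus pointed in opposite directions, and their gap of 0.67 was 1.94 times its scanner error of 0.34. The mean of 0.12 for the gene has no settled direction, and it was -0.21 with the brightest probe or with a stricter filter on dim probes, both of which leave the split probe alone.

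Both Dppa4 probes were below the level of detection on both arrays. The probe shown above read 3.04 in the wild type and 7.05 in the knockout, and the probe at chr16:48293216-48293867 read 2.70 and 7.30. Both wild-type values are substitutes that the scanner software sets for signals at noise level. No difference is given for Dppa4, and the readings say that its mRNA was not detectable here, not that it was missing.

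The Tcstv family was well above background on both arrays at all 4 of its probes. Tcstv1 read 142 in the wild type (scanner error 14.4) and 171 in the knockout (17.4), a difference of 0.30, or 1.24-fold. Tcstv3 read 464 (46.4) and 538 (53.9), a difference of 0.25, or 1.19-fold. Both lay slightly above their scanner errors of 0.21 and 0.20.

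The AF067061 probe that resembles Tcstv1 read 58.8 (6.48) in the wild type and 93.2 (9.90) in the knockout, a difference of 0.70 or 1.62-fold. The AF067061 probe that resembles Gm20767 read 86.1 (9.02) and 98.9 (10.4), a difference of 0.23. Both probes were dim. In the wild type they read 4.58 and 6.70 times the detection limit, and the split Dppa2 probe 6.30 times. The mean of 0.46 for AF067061 was 1.38-fold, and 18.7% of all measured genes were at least as far from 0. Its probes were 0.46 apart, 1.51 times the scanner error of that gap.

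The 4 family probes thus lay on the same side, between 0.23 and 0.70, and they are not fully independent. The Tcstv3 probe and both AF067061 probes are listed with the AF067061 transcript, and 1 of the latter has the stretch in common with Tcstv1 shown above. Gm20767 itself read 23.7 and 20.4, a difference of -0.18 with a scanner error of 0.36, near the lowest signal well above background. Of genes within 0.5 log2 units of AF067061 in level, 28.1% differed by at least as much, and the corresponding share was 39.9% for Tcstv1 and 37.9% for Tcstv3.

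Zfp365 and Arg2 were read by 1 probe each. Zfp365, at chr10:67348918-67348977 on the minus strand of mm9 for NM_178679, read 298 in the wild type (scanner error 29.9) and 453 in the knockout (45.4). Its difference was 0.64 with a scanner error of 0.20, and 11.2% of all measured genes, or 9.94% of genes near it in level, were at least as far from 0. It stayed at least 1.5-fold higher in 9 of 10 other ways of processing, with 0.54 after normexp background correction as the exception. These ways are not independent checks. With 1 probe, its value could not change with the filters on dim probes or the choice of the brightest probe. The authors' values are themselves quantile normalised.

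Arg2 read 93.9 in the wild type (scanner error 9.89) and 98.4 in the knockout (10.6). Its difference of 0.10 was smaller than its scanner error of 0.22, and 78.9% of genes near it in level were at least as far from 0. Across the members, 3 differences were within their scanner error, those of Dppa2, Klf17 and Arg2. Another 2 exceeded 2 such errors, those of AF067061 and Zfp365. The error of 0.15 for AF067061 treats its 2 probes as independent. By itself only the probe that resembles Tcstv1 exceeded 2 errors, at 0.70 with an error of 0.22. The other AF067061 probe read 0.23 with an error of 0.21.

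**Figure D2:**
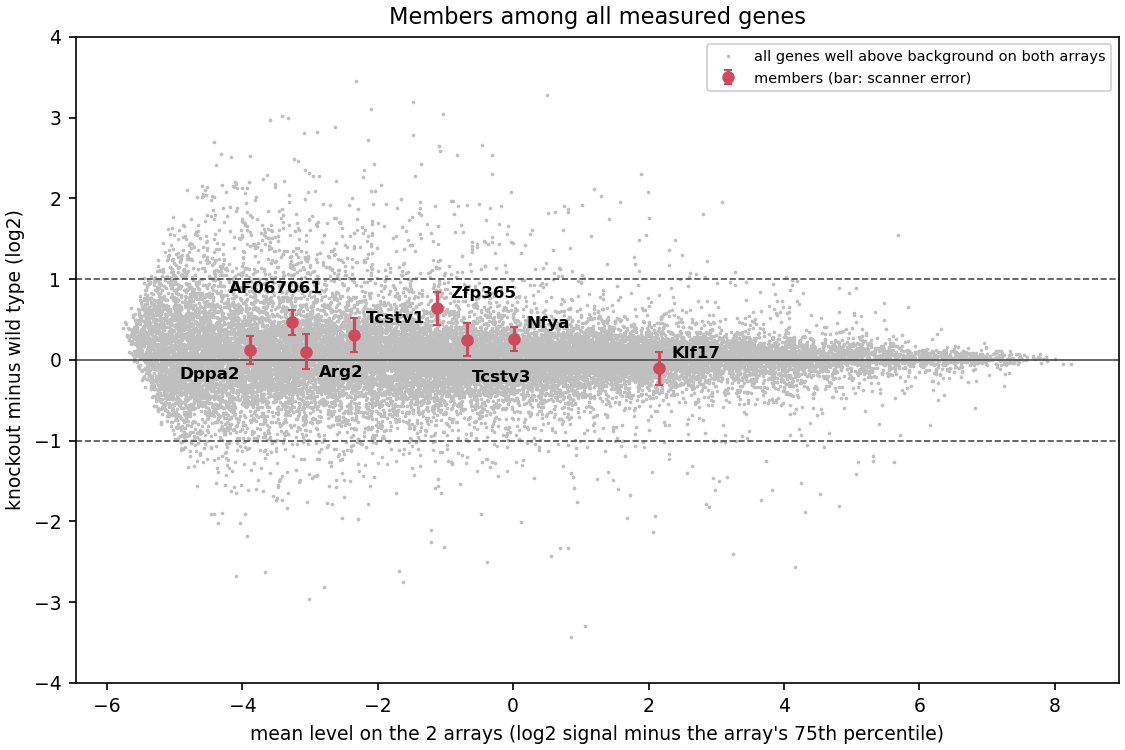
Knockout minus wild type (log2) against the mean level on both arrays (log2 signal relative to the 75th percentile) for the 22893 measured genes in grey and the 8 measured members in red, with bars for the scanner error and dashed lines at 2-fold; 1 gene lies beyond the axis. All members lie between the dashed lines, inside the cloud of genes of like signal.

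**Figure D3:**
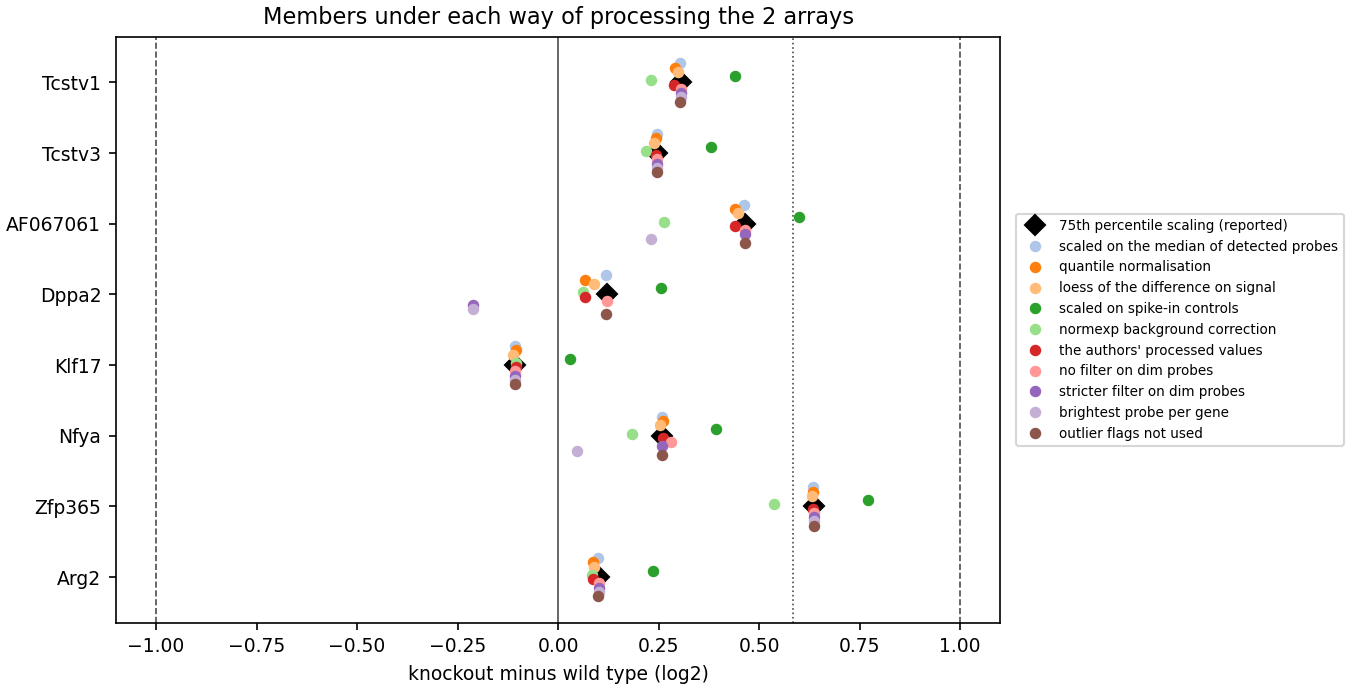
Knockout minus wild type (log2) of the 8 measured members under the reported scaling (black diamonds) and 10 other ways of processing (coloured points); the dotted line is 1.5-fold and the dashed lines 2-fold. No point reaches 2-fold, Dppa2 falls to -0.21 under 2 of them, and Klf17 crosses 0 with scaling on spike-in controls.

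Genes transcribed at the 2-cell stage were mostly not detected. Of 45 further genes listed, 34 were on the array under these names. Of these, 10 were well above background on both arrays, beside 22893 of all 37006 gene names. Another 20 were so on neither array, 2 in the wild type alone and 2 in the knockout alone. For those other counts no share of all genes is given here. The undetected genes included Dux, which encodes the homeobox factor that activates 2-cell transcripts, Zscan4a, Zscan4d and Zscan4f of the Zscan4 telomere and 2-cell family, and Tdpoz1 to Tdpoz4, with Tdpoz1 at 2.93 and 3.55. Zscan4c was detected in the wild type alone, with 16.3 against 8.28, which is close to the detection limit of both arrays. Zscan4b was also marked in the wild type alone, at 12.86, although its knockout signal was higher, at 14.44. BB287469 was detected in the knockout alone, with 33.3 against 12.3. After scaling, its knockout signal was 2.65 times the detection limit of the wild type, the largest such bound in this list. The bound is not firm, because it leaves out the scanner error of both signals. The lowest marked signal is also no strict limit. In the knockout the unmarked signal of Figla, 17.4, was above the lowest marked signal of 15.8.

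The 10 measured genes of this list had a median of -0.25, beside 0.03 over all genes, with 3 above 0 and 7 below. Beside 4.29% of all measured genes, 1 of the 10 was at least 2-fold apart. This was Ddit4l, an inhibitor of mTOR signalling, at 1.32 with signals of 554 and 1357. The next highest were Sp110 at 0.52, over probes from -0.05 to 1.52, and Duxbl1 at 0.05. The lowest were Usp17ld at -0.41 and, close together, Zfp352 at -0.26 with signals of 2500.3 and 2035 and Eif1ax at -0.26. Zfp352 is a zinc finger gene of the early embryo and Eif1ax a translation initiation factor gene.

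Maternal factors of genome activation were mostly detected on both arrays. Of 38 genes listed, 37 were on the array and 34 were measured, beside 22893 of all 37006 gene names. Of the 34, 11 lay above 0 and 23 below, and none was 2-fold apart, beside 4.29% of all measured genes. Their median of -0.09 became 0.05 with scaling on spike-in controls. The highest were Nlrp5, a maternal-effect gene, at 0.77, the pluripotency factor Pou5f1 at 0.37 and the chromatin remodeller Smarca4 at 0.29. Among the lowest were the Krüppel-like factor Klf4 at -0.74 and the elongation factor subunit Ccnt1 at -0.56. Ccnt1 probes ran from -1.07 to -0.27. Obox3 and Obox5, homeobox genes of genome activation, read 0.17 and -0.12.

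All 20 genes listed as repressors of the 2-cell programme were measured, beside 22893 of all 37006 gene names. Of the 20, 10 lay above 0 and 10 below, with a median of 0.02. None was 2-fold apart, beside 4.29% of all measured genes. The chromatin assembly subunit Chaf1a was highest at 0.49, followed by the DNA methyltransferase Dnmt1 at 0.39 and the Myc partner Max at 0.29. Zmym2 was lowest at -0.48, followed by Mga at -0.20 and Rif1 at -0.15.

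Beside Arg2, 23 of 25 further polyamine and arginine genes were measured, with 15 above 0, 8 below and a median of 0.05. Arg1, the cytosolic arginase, was the 1 gene of the 23 at least 2-fold apart, beside 4.29% of all measured genes. It read 1.02 with signals of 317 and 629, and it was below 2-fold after normexp. The next highest were Agmat at 0.58 and the argininosuccinate synthase gene Ass1 at 0.33. The lowest were Azin1, an inhibitor of antizyme, at -0.41, the arginine transporter Slc7a1 at -0.36 and Nos2 at -0.34. Odc1, the first enzyme of polyamine synthesis, read -0.33.

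**Figure D4:**
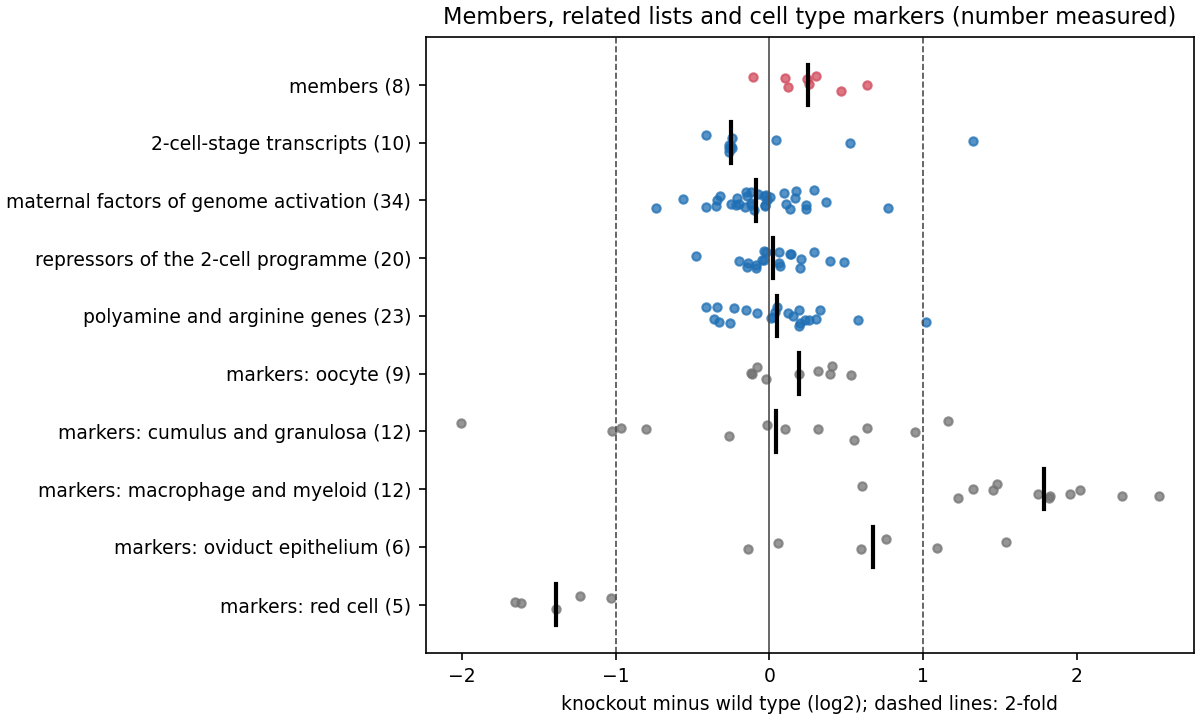
Knockout minus wild type (log2) of every measured gene of the members (red), the 4 related lists (blue) and the 5 cell type marker lists (grey), with a black bar at each median and dashed lines at 2-fold. The members lie between -0.11 and 0.64, and the macrophage and red cell markers lie apart from 0 on opposite sides.

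Oocyte markers were present on both arrays. Of 10 listed, 9 were measured, with 5 above 0, 4 below, a median of 0.19 and none 2-fold apart. For comparison with this and the other marker lists, 22893 of all 37006 gene names were measured, and 54.8% of these lay above 0. At least 2-fold apart were 4.29% of them, 670 higher and 312 lower. Figla was marked in the wild type alone, at 33.4. Its unmarked knockout signal of 17.4 was above the lowest marked signal of that array, 15.8. The summed signal of the measured oocyte markers was 115348 in the wild type and 106898 in the knockout. Most of it was Gdf9, at 68126 and 61515, and Oosp1, at 39329 and 35398. Summed signals here and below are not scaled between the arrays. Markers of the other cell types were detected on both arrays, every listed gene included. Macrophage and myeloid markers were higher in the knockout in 12 of 12, 11 at least 2-fold, with summed signals of 36618 and 93207. Oviduct epithelium markers were higher in 5 of 6, 2 at least 2-fold, with summed signals of 102059 and 144873. Ovgp1 alone, from 24266 to 69104, rose by more than the sum of the list did, while Krt8 was at 0.06 and Krt18 at -0.14. Cumulus and granulosa markers were higher in 6 of 12 and lower in 6, with summed signals of 155812 and 164189. Of these, Has2 was at least 2-fold higher at 1.16, and Ereg at -2.01 and Areg at -1.02 were at least 2-fold lower. Red cell markers were at least 2-fold lower in 5 of 5, with 87022 and 27642. The part of these cells in the values of Zfp365, Arg1, Ddit4l and the other genes above was not tested, and fewer cells of a type cannot be told apart from less RNA per cell.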

How the data were processed

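The members and gene lists were chosen with earlier results of these data known. RNA of each pool was amplified and given the Cy3 dye (Low Input Quick Amp kit), per the labels' protocols, and hybridised to array design 074809. Per the file headers, the deposited intensity was written by Agilent Feature Extraction 10.7.1.1 (the submitters' processing notes name 9.5.1.1), background-subtracted and detrended within each array, and not scaled between arrays. The authors' series-wide intensity table, with a median of 57.95 in both columns, is quantile normalised and followed the scanner values with r = 0.99997 across probes on the log2 scale.

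Here log2 was taken per spot, outlier spots and control spots were left out, spots of a probe were averaged and the array's 75th percentile was subtracted. A gene's value is the mean over probes well above background on both arrays. A bound's dim side is the detection limit of its array or the probe's own signal, whichever was greater. Other genes were named through RefSeq (GRCm38.p6) by accession (32982 probes), symbol (10222) or synonym (523), and 12864 probes kept the file's name. Genes were counted by size, with no test. From each further list the highest and lowest 3 measured genes and those 2-fold apart were to be named, and BB287469, Zscan4, Tdpoz, Dux, Obox and NF-Y genes, Odc1, Gm20767 and single marker genes were added after their values were seen. The value of 1 gene that this rule names is not reported here. A run of the size rule on simulated shifts checked only that the code counts shifts larger than 2-fold. It does not bear on how reliable the differences here are. Python 3.11.15, numpy 2.4.6, pandas 2.3.3, R 4.3.3 and limma 3.58.1 were used.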

Additional observations from a re-analysis of the deposited data

How the results depend on the processing

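Leaving out replicates was not possible. No paired analysis was possible because each genotype has 1 array. Over 10 other settings the members' median difference stayed between 0.17 and 0.39, and none of 80 values of the 8 measured members reached 2-fold. The filter and brightest-probe settings could not change members with 1 probe, so these values are not independent. With no filter Dppa4 also had a value, 1.36, from readings that were not well above background on either array. Of the 80 values, 5 moved by more than the scanner error, those of AF067061 at 0.26 (normexp) and 0.23 (brightest probe), of Dppa2 at -0.21 (stricter filter and brightest probe) and of Nfya at 0.05 (brightest probe).

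Counts of genes at least 2-fold apart were 670 higher and 312 lower over all genes. With normexp (offset 50) they were 212 and 115, with a harder cut-off for dim probes (4 times the lowest signal well above background) 338 and 194, and with no filter 2763 and 1326. Scaling on spike-in controls (7 probes) gave 901 and 201, raised the median of all genes to 0.16 and the share of higher genes among those apart from 68.2% to 81.8%. With no filter the counts were 9 of the 34 listed 2-cell-stage transcripts, whose median became 0.33, 1 of 37 maternal factors and 2 of 24 polyamine genes. Over all genes at that setting they were the 2763 higher and 1326 lower given above, of 37006. With normexp the count among polyamine genes was 0. Readings near background carry no reliable difference, which limits Dppa2, Dppa4 and most 2-cell-stage transcripts. The AF067061 and Arg2 probes, all under a signal of 100, were also dim.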
